A study of Mus musculus with 3 samples.

Results

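The levels of 10 genes that silence repeated and imprinted DNA were examined in RNA of mouse medial prefrontal cortex (mPFC), which lies at the front of the brain. The genes were Trim28, Setdb1, Atf7ip, Morc2a, Mphosph8, Pphln1, Smchd1, Hells, Zfp57 and Zfp445. They were taken by name and not by a cutoff on level, though earlier results of these data were known. All 10 were matched among the 46073 genes of the RNA-seq table. The tissue came from untreated (naïve) C57BL/6 mice aged 3 months, in a study of methylated DNA in this region. The series holds 3 samples from such mice, which are DNA pulled down by an antibody to methylated cytosine (MeDIP), input DNA, and RNA. Only the RNA values were used, and there is no second condition. The design text states 3 RNA replicates, but the table gives 1 value per gene, so no value has an error, no test was possible, and the depth is unknown. How many animals gave the RNA is not given in the sources used here.

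Transposable elements and their remnants are kept silent in mammalian cells by histone methylation and DNA methylation. KRAB zinc finger proteins bind particular DNA sequences and recruit the corepressor TRIM28 (KAP1), which brings in the histone H3 lysine methyltransferase SETDB1, HP1 proteins and the NuRD complex. The human silencing hub (HUSH), built from TASOR, MPP8 and periphilin, acts on integrated retroelements with the ATPase MORC2 and also depends on SETDB1. In the developing brain, loss of Trim28 or Setdb1 is known to release transcription of endogenous retroviruses. Only the RNA of the silencing genes, and not that of repeats, is described.

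Levels are given in FPKM, in which the fragments of a gene are divided by its transcript length and by the mapped total, so genes can be ranked within the sample. Detection was called from 1 FPKM upward. Of the 10 genes 9 were detected (90%), against 31.5% of all genes in the table and 58.6% of the 20637 protein-coding ones. Their median was 7.98 FPKM, and the median of their percentiles among protein-coding genes was 66.9. Among protein-coding genes that were detected the median was 9.86 FPKM, and 4 of the 10 genes lay above it. From Trim28 to Hells the levels spanned 98.1-fold.

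**Figure D1:**
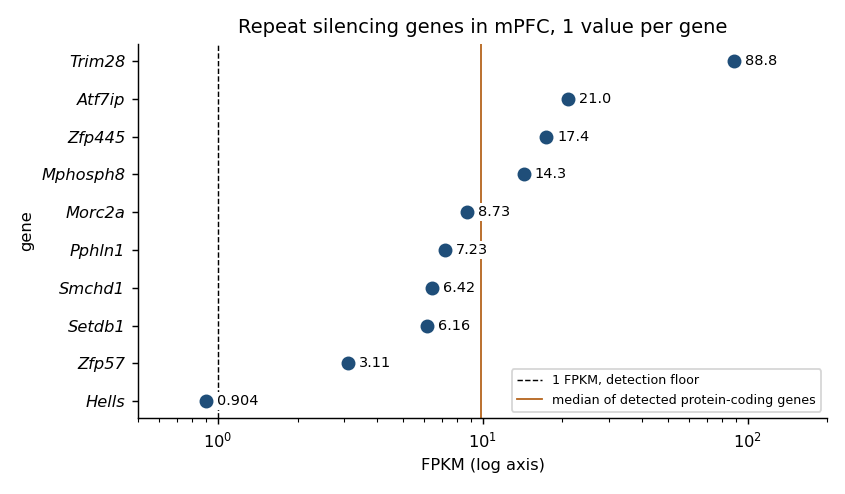
RNA level of the 10 repeat silencing genes in mPFC, in FPKM on a log axis, 1 point per gene with its value beside it. The dashed line is the detection floor of 1 FPKM and the solid line the median of detected protein-coding genes at 9.86 FPKM. Trim28 stands alone at 88.8 FPKM, and Hells at 0.904 FPKM is the one gene under the floor.

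The sequence before a gene's start site was set beside the levels, since DNA methylation acts on CpG dinucleotides and the study's subject is DNA methylation. The 250 bases before an annotated start site are printed for the highest gene, the lowest gene and both zinc finger genes, because these 4 show how CpG content and RNA level did and did not go together in this set. They are from RefSeq (GRCm38.p6, the assembly also called mm10), 5′ to 3′ on the strand of the gene, with every CpG in capitals.
Trim28 (chr7:13023902-13024151, + strand): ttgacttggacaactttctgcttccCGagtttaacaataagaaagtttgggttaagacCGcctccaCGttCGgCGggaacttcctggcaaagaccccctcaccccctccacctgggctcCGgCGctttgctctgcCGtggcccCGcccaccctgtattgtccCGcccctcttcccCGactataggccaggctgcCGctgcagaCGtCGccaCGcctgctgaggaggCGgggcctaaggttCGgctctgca
Hells (chr19:38930740-38930989, + strand): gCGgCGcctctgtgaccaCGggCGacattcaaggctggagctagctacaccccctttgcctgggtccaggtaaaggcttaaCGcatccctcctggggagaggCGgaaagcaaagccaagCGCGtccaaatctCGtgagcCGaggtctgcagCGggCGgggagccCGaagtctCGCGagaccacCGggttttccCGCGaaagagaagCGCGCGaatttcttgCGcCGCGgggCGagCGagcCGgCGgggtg
Zfp57 (chr17:37000913-37001162, + strand): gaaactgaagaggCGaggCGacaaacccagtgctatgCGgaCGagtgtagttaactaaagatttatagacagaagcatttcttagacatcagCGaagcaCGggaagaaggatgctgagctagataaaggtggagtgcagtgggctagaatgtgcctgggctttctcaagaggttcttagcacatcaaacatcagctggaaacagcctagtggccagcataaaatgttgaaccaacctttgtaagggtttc
Zfp445 (chr9:122866007-122866256, - strand): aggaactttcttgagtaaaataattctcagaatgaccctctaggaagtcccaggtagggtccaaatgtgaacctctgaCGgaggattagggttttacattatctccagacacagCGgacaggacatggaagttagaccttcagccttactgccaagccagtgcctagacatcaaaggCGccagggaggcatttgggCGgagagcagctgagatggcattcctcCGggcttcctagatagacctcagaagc
These stretches hold 17 CpG dinucleotides for Trim28 and 28 for Hells, against 6 for Zfp57 and 5 for Zfp445. Of these 4 genes Hells thus had the most CpG and the lowest RNA level. Among the members not printed, Pphln1, Morc2a and Smchd1 held more CpG than Hells in the same stretch, at 46, 39 and 33 for the outermost start site. For Zfp57 the printed stretch belongs to the outermost of 3 annotated start sites. The start site used for Hells lies 728 bases inside the outer end of the gene, so its printed stretch is within the annotated gene. The start site used for Zfp445 lies 20845 bases inside the outer end of the gene, and other start sites of Zfp445 were not analysed here.

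Trim28 was the highest member. It encodes the corepressor that binds the KRAB domain of zinc finger proteins, and it lies on chromosome 7 (13024152 to 13031032). Its level of 88.8 FPKM stood at the 96.8th percentile of protein-coding genes and was 4.23-fold above the next gene of the set, Atf7ip. Of its relatives in the TIF1 family, all 4 of which were detected, Trim33 stood at 13.2 FPKM, Trim24 at 5.70 FPKM and Trim66 at 4.16 FPKM. Trim28 was 6.72-fold above Trim33, 15.6-fold above Trim24 and 21.3-fold above Trim66. A wider set, protein-coding genes named Trim and a number, was chosen after the values were seen. In it 30 of 67 genes passed the floor, the median was 0.712 FPKM, and Trim28 ranked 1st, 1.62-fold above Trim37 at 54.6 FPKM.

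The NuRD, HP1 and SUMO lists, which hold partners of TRIM28, had medians above that of detected protein-coding genes. Every one of 13 NuRD genes was detected (median 23.3 FPKM). The remodelling ATPase Chd3 was highest at 97.2 FPKM, Mbd3 followed at 60.6 FPKM, and Gatad2a was lowest at 3.58 FPKM. The HP1 genes, whose proteins bind methylated histone H3, were Cbx3 at 44.4 FPKM, Cbx5 at 30.1 FPKM and Cbx1 at 11.7 FPKM. SUMO modification of TRIM28 is known to help bring in SETDB1, and all 10 genes of the SUMO list passed the floor (median 41.8 FPKM). The modifiers Sumo2 and Sumo3 stood at 109 and 98.0 FPKM and the ligase gene Pias1 was lowest at 9.07 FPKM. Cbx3 and Sumo2 have processed pseudogenes, so their values are uncertain.

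Setdb1, the histone H3 lysine methyltransferase gene shared by both silencing routes (chromosome 3, 95323525 to 95357202), stood at 6.16 FPKM. That is the 62.4th percentile of protein-coding genes and 14.4-fold below Trim28. Atf7ip (chromosome 6, 136518789 to 136610850), whose protein stabilises SETDB1 in the nucleus, was at 21.0 FPKM, 3.41-fold above Setdb1. The methyltransferase was thus the lower of this pair at the RNA level. Its paralog Setdb2 was at 1.36 FPKM, 4.54-fold below Setdb1. Atf7ip2, the paralog of Atf7ip, was at 0.00854 FPKM, under the floor.

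Among other methyltransferases of the same histone residue, Setdb1 lay below Ehmt2 at 48.6, Ehmt1 at 8.12 and Suv39h1 at 7.24 FPKM, and above Setdb2 and Suv39h2, the latter at 1.25 FPKM. Ehmt2, which acts mainly in euchromatin, was 7.89-fold above Setdb1. Suv39h1, the enzyme of pericentromeric heterochromatin, was only 1.18-fold above it. The list of 8 genes, which also holds Atf7ip and Atf7ip2, had 7 detected and a median of 6.70 FPKM. Only Atf7ip2 was under the floor. The listed histone H4 lysine methyltransferase genes were all detected, with Kmt5a at 15.3, Kmt5b at 7.81 and Kmt5c at 5.11 FPKM.

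The HUSH subunits were detected at unequal levels. Mphosph8 (chromosome 14, 56668235 to 56697430), which encodes the chromodomain reader MPP8, was highest at 14.3 FPKM. Pphln1 (chromosome 15, 93398345 to 93491913), which encodes the RNA-binding subunit periphilin, stood at 7.23 FPKM. Tasor, listed under its older name Fam208a and the scaffold of the complex, was at 3.83 FPKM. Mphosph8 was 1.97-fold above Pphln1 and 3.72-fold above Tasor, and Pphln1 was 1.89-fold above Tasor. Tasor2, listed as Fam208b, was at 2.87 FPKM, 1.33-fold below Tasor. These are ratios of RNA levels and not of subunits in the complex.

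Morc2a, the ATPase gene that works with HUSH (chromosome 11, 3649189 to 3690477), stood at 8.73 FPKM, the 68.6th percentile of protein-coding genes. Its paralog Morc2b was at 0.195 FPKM, 44.8-fold lower. Reads that fit both copies cannot be divided with certainty, so the value of Morc2b is uncertain. In the MORC family Morc3 followed at 5.00 FPKM and Morc4 at 1.32 FPKM, while Morc1, a gene of the male germline, was at 0.0186 FPKM. Morc2a was thus the highest of the 5 genes, 3 of which were detected.

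Other genes that work with HUSH were detected too. Zfp638, whose protein brings HUSH to unintegrated retroviral DNA, was at 11.2 FPKM, and Resf1, a retroelement silencing factor that binds SETDB1, at 1.45 FPKM. Including these, 7 of 8 genes of the HUSH list passed the floor (median 5.53 FPKM). The nuclear exosome targeting complex, an RNA decay complex linked to HUSH, had Zcchc8 at 15.4, Mtrex at 14.6 and Rbm7 at 9.66 FPKM. The histone H3.3 genes H3f3a and H3f3b were at 88.6 and 70.2 FPKM, and Atrx and Daxx, whose proteins place H3.3 at repeats, at 28.3 and 11.3 FPKM. H3f3a and H3f3b have processed copies in the genome, so their values are uncertain.

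**Figure D2:**
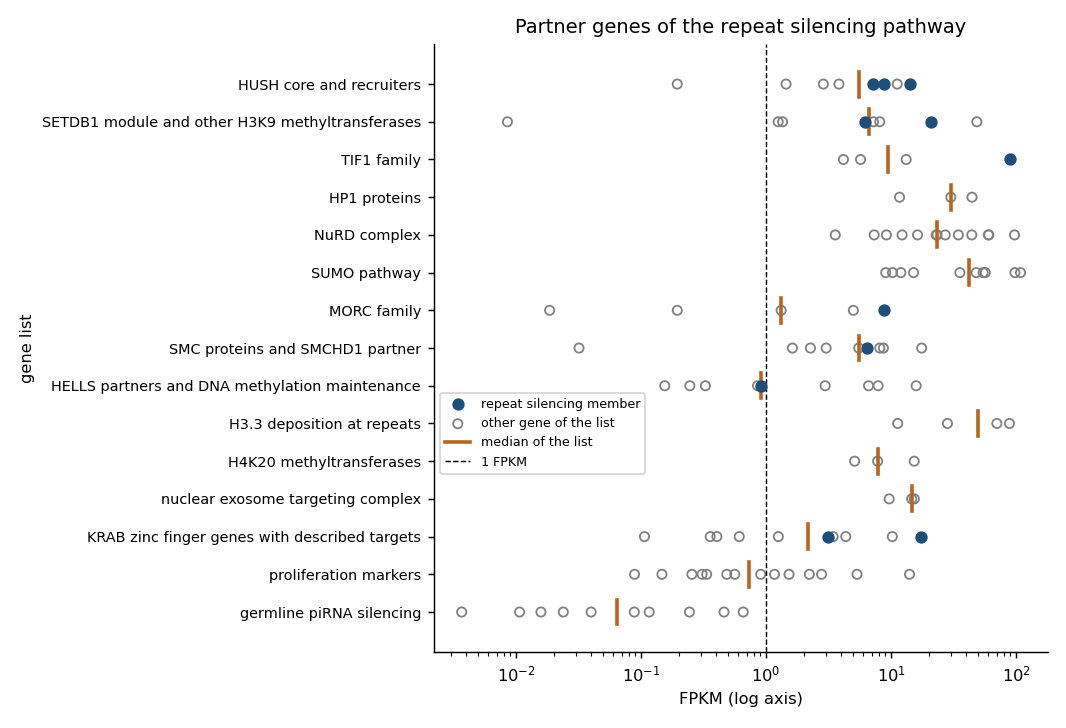
RNA level in FPKM (log axis) of each gene in 15 lists, 1 row per list. Filled points are the repeat silencing members, open points the other genes of a list, and the short bars the list medians. Trim28 lies to the right of the other TIF1 genes, Hells lies just left of the floor at 1 FPKM, and every germline piRNA gene lies left of it.

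Smchd1 encodes a noncanonical SMC protein needed for X inactivation and for some imprinted clusters (chromosome 17, 71344489 to 71475366). Its level was 6.42 FPKM, the 63.1st percentile of protein-coding genes. Lrif1, whose protein links SMCHD1 to HP1, was at 8.13 FPKM, 1.27-fold above Smchd1. Among the SMC genes of the list, Smchd1 lay below the cohesin genes Smc1a at 17.6 and Smc3 at 8.69 FPKM, and above Smc6, Smc5, Smc4 and Smc2 at 5.52, 3.03, 2.27 and 1.63 FPKM. The meiotic cohesin gene Smc1b was at 0.0319 FPKM. In this list of 9 genes 8 passed the floor, and the median was 5.52 FPKM.

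Hells was the lowest member. It encodes a SNF2-type remodeller (LSH) that is needed for DNA methylation of repeats and is known chiefly from dividing cells (chromosome 19, 38930262 to 38970470). Its level was 0.904 FPKM, just under the floor and at the 40.7th percentile of protein-coding genes. Cdca7, whose protein activates HELLS, was at 0.855 FPKM, 1.06-fold below Hells, and Cdca7l at 0.327 FPKM. Zbtb24, a transcription factor gene that controls Cdca7, was at 2.97 FPKM, 3.29-fold above Hells. Hells and Cdca7 thus lay side by side under the floor, with Zbtb24 above it.

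Of the 9 genes in the list of HELLS partners and DNA methylation maintenance 4 were detected, and the median was that of Hells itself. The highest were Uhrf2 at 15.9 FPKM and the maintenance methyltransferase gene Dnmt1 at 7.88 FPKM, and the lowest was Dnmt3b at 0.155 FPKM. Of the rest, Dnmt3a was detected at 6.60 FPKM and Uhrf1 was under the floor at 0.246 FPKM. Proliferation markers were low in the same sample, with 6 of 14 detected and a median of 0.735 FPKM. Pcna, also used in DNA repair, was highest at 14.1 FPKM, the replicative helicase gene Mcm7 followed at 5.34 FPKM, and Mki67, which marks cycling cells, was lowest at 0.0887 FPKM. In a bulk sample, few cells of a type with much RNA cannot be told apart from many cells with little.

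The zinc finger genes Zfp445 and Zfp57 encode KRAB proteins that bind methylated imprinting control regions and keep their methylation. Zfp445 (chromosome 9, 122848910 to 122886851) stood at 17.4 FPKM, the 80.7th percentile of protein-coding genes. Zfp57 (chromosome 17, 37001163 to 37010729) was at 3.11 FPKM, the 52.3rd percentile. Zfp445 was thus 5.59-fold above Zfp57.

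Both were placed among the 390 protein-coding genes named Zfp and a number, a set by name that holds KRAB and other zinc finger genes. Of these 297 were detected (76.2%), the median was 2.77 FPKM, and 35 reached 10 FPKM. Zfp445 ranked 14th, at the 96.4th percentile of the set and 6.26-fold above its median. Zfp57 lay close to the middle, at rank 171 and 1.12-fold above the median. The 5 highest genes were Zfp365 at 191, Zfp523 at 57.8, Zfp106 at 46.7, Zfp414 at 30.1 and Zfp706 at 28.9 FPKM.

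**Figure D3:**
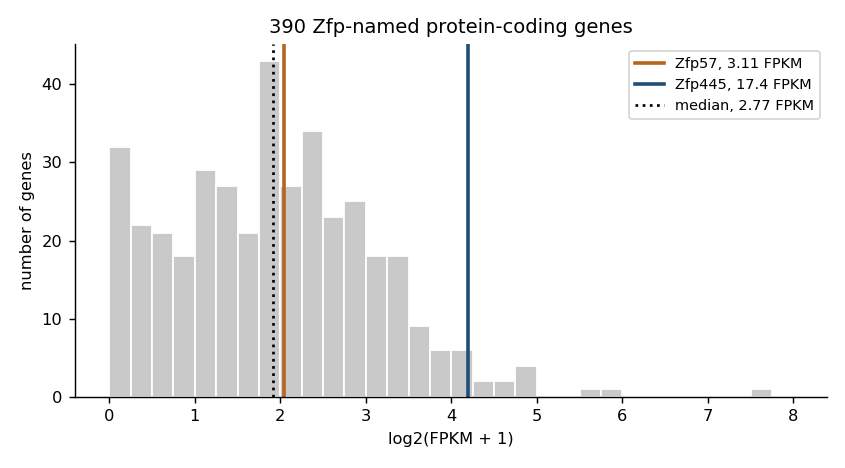
Number of Zfp-named protein-coding genes in each interval of log2(FPKM + 1), 390 genes in all. The dotted line is the median of 2.77 FPKM. Zfp57 at 3.11 FPKM lies next to the median and Zfp445 at 17.4 FPKM in the upper tail.

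KRAB genes with described DNA targets covered a wide range. In that list 6 of 10 passed the floor, and the median was 2.18 FPKM. After Zfp445 came Zfp932 at 10.2 FPKM, Zfp961 at 4.35 FPKM and Zfp809 at 3.44 FPKM. Zfp809 is known for repressing murine leukaemia virus-like elements, and its level was near that of Zfp57. Zfp689 was at 1.25 FPKM, and Zfp708, Zfp429 and Zfp568 were under the floor at 0.610, 0.404 and 0.358 FPKM. Rslcan18 was lowest at 0.106 FPKM. Many of these genes lie in clusters of recent duplicates, and reads shared between copies make their values uncertain.

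Genes of the germline route, in which piRNAs guide silencing in the testis, were under the floor in 10 of 10 cases. Their median was 0.0641 FPKM. Ddx4 was highest at 0.657 FPKM, Dnmt3l followed at 0.461 FPKM and Tex19.1 was lowest at 0.00367 FPKM. Genes that derive from transposable elements and now serve the host were mostly detected, at 14 of 18 with a median of 4.73 FPKM. Pgbd5 was highest at 45.4 FPKM, followed by Pnma8a at 40.5 FPKM, listed as Pnmal1, and Pnma5 was lowest at 0.0376 FPKM.

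Over the 13 lists of silencing partners, with the germline and transposable element-derived lists left out, there were 77 genes beside the members. Of these 65 were detected (84.4%), and their median was 8.69 FPKM. The members, with 90% detected and a median of 7.98 FPKM, were close to their partners by both measures. Only Chd3, Sumo2 and Sumo3 stood above Trim28 in these lists.

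Of the 18 gene pairs compared, 12 differed by at least 2-fold in FPKM. Several pairs share a gene, and some hold a paralog under the floor. The share among other gene pairs was not counted, so 12 of 18 describes only these pairs. The 6 pairs within 2-fold were Mphosph8 and Pphln1, Pphln1 and Tasor, Tasor and Tasor2, Hells and Cdca7, Smchd1 and Lrif1, and Setdb1 and Suv39h1. In the order of the members, the steps from Morc2a through Pphln1 and Smchd1 to Setdb1 were 1.21-fold, 1.13-fold and 1.04-fold. With no spread between replicates it cannot be said whether these 4 genes differ.

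CpG content was then measured over 300 bases, from 250 before to 50 after a start site, as the observed count of CpG relative to the count expected from the C and G content. With the highest ratio taken where a gene has several windows, 8 of the 10 members were at or above 0.6, a usual limit for CpG-rich sequence. Of 16564 protein-coding genes with a window and a value, 52.2% were. The median ratio of the members was 0.903, against 0.626 over those genes. The highest was Morc2a at 1.30, followed by Pphln1 at 1.21, Atf7ip at 1.14 and Hells at 1.06. Smchd1, Mphosph8, Trim28 and Setdb1 were at 0.975, 0.832, 0.761 and 0.703. The members below the limit were the KRAB genes Zfp445 at 0.466 and Zfp57, whose 3 windows were at 0.376, 0.438 and 0.295. The only window of Zfp445 lies at the start site 20845 bases inside the gene, so its ratio may not hold for other start sites.

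RNA levels differed widely between genes on either side of this limit. Among 8643 genes at or above it 87.2% were detected and the median was 8.99 FPKM, and among 7921 genes below it 27.6% were detected and the median was 0.0467 FPKM. Zfp57 stood at the 81.1st percentile of RNA level among the CpG-poor genes. Hells stood at the 12.3rd percentile among the CpG-rich genes, and Trim28 at the 94.9th. Zfp57 was thus among the higher genes of its CpG class and Hells among the lower genes of its class. Among the 325 Zfp-named genes with a window, 141 (43.4%) were below the limit, and 87 of those were detected. At or above the limit 162 of 184 were detected. The medians of these Zfp-named genes were 1.54 FPKM below the limit and 3.79 FPKM at or above it. The methylation of these sequences was not analysed here.

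**Figure D4:**
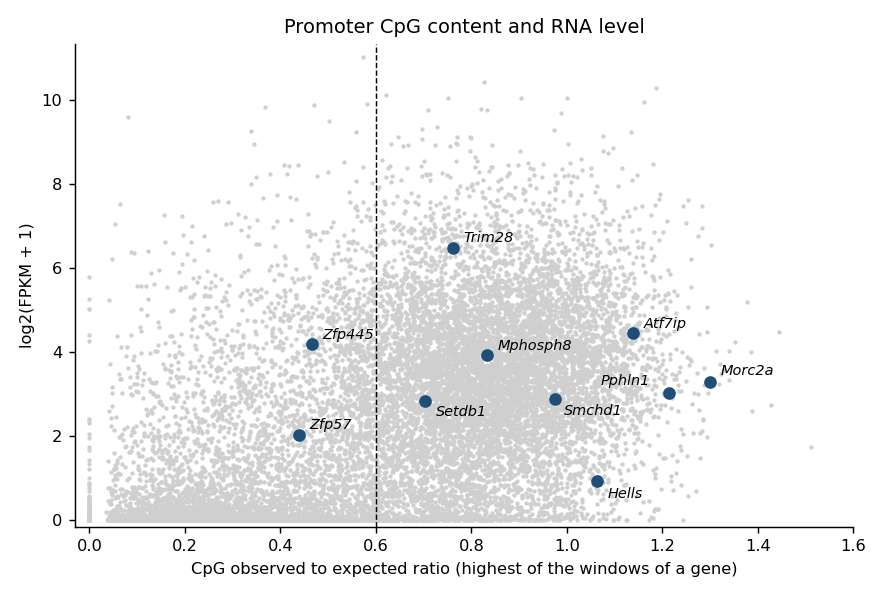
RNA level as log2(FPKM + 1) against the CpG observed to expected ratio around the start site, 1 point per protein-coding gene, with the 10 repeat silencing genes as labelled large points. The dashed line marks a ratio of 0.6, and 1 gene with a ratio above 1.6 is not drawn. Zfp57 and Zfp445 lie to its left, the other 8 to its right, and Hells lies low among the CpG-rich genes. The ratio of Zfp445 is from a start site well inside the gene.

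Short motifs of general promoter factors were searched on both strands of the same 300-base windows. The SP motif GGGCGG was found for 8 of the 10 members, all but Pphln1 and Zfp57, which is 8 of their 14 windows (57.1%), against 46.2% of the 21263 windows of protein-coding genes. The ETS motif CCGGAAG was found for Setdb1 and Pphln1, in 3 of 14 windows (21.4%) against 11.6% of all windows. The windows of Pphln1 overlap and hold the same ETS site, which is thus counted in each. CCAAT was found for 5 members, in 5 of 14 windows (35.7%) against 38.2%. TATAAA was found in the outermost window of Zfp57 and in the inner of the windows of Morc2a, which holds no CpG, so in 2 of 14 windows (14.3%) against 12.6%. The motifs GCGC, any base, TGCGC (NRF1), AAGATGGC (YY1) and TGACGTCA (CRE) were in no member's window, and in 6.38%, 3.05% and 2.23% of all windows.

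Neighbouring genes bear on some of these values. The library kit does not mark strand, and whether counting used strand is not known from the sources used here, so reads where genes overlap cannot be assigned with certainty. Only 10 bases separate the end of Zfp57 from the end of Mog, a myelin gene on the opposite strand that stood at 30.8 FPKM, 9.92 times Zfp57. Setdb1 overlaps the end of Cers2, at 21.0 FPKM, by 75 bases. Mphosph8 overlaps the antisense RNA gene Gm16973, at 3.70 FPKM, by 1156 bases. Zfp445 overlaps Zkscan7, at 0.406 FPKM, by 34 bases, and the pseudogene Gm4707 inside Smchd1 was at 0.330 FPKM. At their start sites, Pphln1 lies 3 bases from Zcrb1, at 53.6 FPKM, and Morc2a 374 bases from the long non-coding RNA gene Tug1, at 16.9 FPKM. RefSeq lists an overlapping gene for 7 of the 10 members, and for Trim28 (Gm31649), Atf7ip (LOC108169175) and Pphln1 (Gm30181) that gene had no value under its RefSeq symbol. The share of all genes with such an overlap was not counted, so the 7 are not shown to be a trait of this set. The part of such reads in the members' values was not tested.

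Markers of the cell types of cortex were present. All 7 neuron markers were detected (median 303 FPKM), led by Snap25 and Camk2a, and Gad2 was lowest at 21.2 FPKM. Medians were 84.4 FPKM for astrocyte markers (6 of 6 detected), 204 FPKM for oligodendrocyte markers (5 of 5), 16.9 FPKM for microglia markers (5 of 5) and 5.85 FPKM for endothelial markers (5 of 5). Markers of other tissue were present too. The choroid plexus gene Ttr, a thyroid hormone carrier, stood at 566 FPKM, the 99.8th percentile of protein-coding genes, while Folr1, Kcnj13 and Kl were at 12.5, 8.57 and 4.72 FPKM. The choroid plexus list had a median of 10.5 FPKM (4 of 4) and the blood list one of 8.04 FPKM (3 of 4). The part of such tissue in the members' values was not tested. Which cells carried the RNA of the silencing genes cannot be told from a bulk value.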

How the data were processed

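Per the labels' protocols, the library kit for mPFC RNA was Illumina's TruSeq RNA v2. The submitters' processing notes name build mm10 and the tools Cufflinks, TopHat and CASAVA 1.8.2. Not given in the sources used here are annotation, strand setting and how replicates were combined. The authors deposited FPKM values in 2 columns, equal in 46073 of 46073 rows, and these were counted as 1 sample.

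Symbols were looked up by Ensembl identifier (45139 rows named), and gene class, coordinates and promoter windows came from RefSeq GRCm38.p6, matched by symbol. Pnma8b had no row under its symbol and was left out. Members and lists were chosen with earlier results of these data known. Named were all members, the genes of the 18 pairs, all genes of lists of up to 5, the 2 highest and the lowest of longer lists, the 5 highest Zfp-named genes, KRAB genes with described targets, and genes overlapping a member. Marker lists are given by medians and a few genes, and some further list genes are named for their position beside a member or to complete a list. The TRIM set and the CpG limit of 0.6 were chosen after the values were seen. Protein sequences were not used here, so zinc finger genes were taken by name instead of by KRAB domain. Counting of CpG and motifs was tested on simulated sequences. The software was pandas 2.3.3 and numpy 2.4.6 under Python 3.11.15, with matplotlib 3.10.9 for figures.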

Additional observations from a re-analysis of the deposited data

How the results depend on the processing

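The count of detected members was 10 at a floor of 0.5 FPKM, 9 at 2 FPKM and 8 at 5 FPKM, where 63.4%, 52.6% and 41.1% of protein-coding genes and 35.4%, 27.5% and 20.8% of all genes passed. Rescaling to a total of 1000000 without the mitochondrial genes, which held 50.04% of the summed FPKM, multiplies every other gene by 2.54. At the same floor of 1 this acts as a lower floor: 10 members passed, Hells at 2.30 included, and so did 64.9% of protein-coding and 36.7% of all genes. The median percentile of the members was 83.3 among all genes of the table and 43.4 among detected protein-coding genes, so their standing depends on the background chosen. Of the 390 Zfp-named genes 107 reached a floor of 5 FPKM. The count of pairs apart was 12 with a pseudocount of 1 or of 0.1, 14 at 1.5-fold and 9 at 4-fold. The 13 lists of silencing partners, the germline list and the transposable element-derived list were counted together as 15 lists, without marker lists. Of these 15 lists 13 had a median at or above 1 FPKM. For 14 the geometric mean was there, taken with a pseudocount of 1 that was subtracted again. This pseudocount raises the mean of lists that hold values near 0. The median CpG ratio of the members was 0.840 over the bases before the start site alone. Leaving out replicates and the KRAB set by protein sequence were not run. No paired analysis was possible because the table gives 1 value per gene. Depth is unknown, so small differences between low genes have no stated precision.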
